A study of Mus musculus with 4 samples.

Results

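The S and G2/M cell cycle genes described here are 40 genes whose transcripts accumulate in dividing cells. They were taken by symbol from the 32285 genes of each count table, and all 40 were found. The S part holds 16 genes of DNA replication and the mitotic part holds 24 genes of chromosome segregation and cell division. Transcripts were counted in single cells of whole noses from mouse embryos at embryonic day 14.5, in 2 control and 2 mutant libraries. The study's title concerns loss of YAP and TAZ, a pair of transcriptional coactivators of the Hippo pathway, in the neural crest. Mutants carried the transgene Tg(Sox10-cre)1Wdr with floxed Yap and floxed Taz on C57Bl/6J. The series' design text gives them 1 floxed and 1 wild-type Yap allele and Taz floxed on both alleles, so that 1 Yap allele stayed intact in every cell. For the controls the sources differ: the sample labels say wild type C57Bl/6J, whereas the design text has both Yap and both Taz alleles floxed and no Cre. Sox10-driven Cre acts in neural crest derivatives, so most epithelial and blood cells and the endothelial cells that line vessels would keep both genes in a mutant nose. The labels do not say whether each library is a separate nose, and p-values therefore measure the spread between libraries, which may be technical.

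Cells duplicate their chromosomes in S phase and separate them in mitosis, and each phase has its own transcription programme. E2F factors switch on replication genes before and during S phase, while the DREAM and B-MYB-FOXM1 complexes act through CHR elements and CCAAT boxes on genes that peak in G2 and M. At this stage the nose holds growing mesenchyme, cartilage and bone precursors, epithelia, vessels, glia and macrophages, which leave the cell cycle at different times.

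After filtering, 13739 cells remained, with 2474 to 4195 cells and 19767873 to 35331450 UMIs per library (a UMI tags 1 captured molecule). Median depth ran from 5282 UMIs per cell in mutant 2 to 8549 in mutant 1, with 7033 and 6878.5 in controls 1 and 2, so the shallowest and the deepest library are both mutants. From 3 to 5 cell barcodes were shared by each pair of libraries. Over all cells the targeted gene Yap1 stood at 65.0 and 65.2 counts per 1000000 UMIs (CPM) in controls 1 and 2, and the mutants had 56.4 and 56.0 CPM. Wwtr1, which encodes TAZ, overlapped between the groups, at 118 and 145 CPM against 123 and 132 CPM. Counts come from the 3′ end of transcripts and can include transcripts that lack a floxed exon, so neither value checks the deletion. Cells were assigned to types by marker genes, and a name ending in "-like" means that the cell's detected markers fit that type. Of 147 marker entries, 20 were higher in another type than in their own. These were 4 of 10 for mesenchyme (Col1a1 and Col1a2 higher in osteoblast-like, Col3a1 in mural-like and Postn in glia-like cells), 4 of 7 for basal keratinocytes (Krt5, Krt15, Dsp and Perp, higher in differentiated keratinocyte-like cells) and Col11a2 of cartilage, higher in osteoblast-like cells. For the 3 lists behind nasal epithelium they were Neurog1, Neurod1, Insm1, Cyp2g1, Cldn3 and Aqp5 (higher in neuron-like cells), Ebf1 (mural-like) and Hes1 (differentiated keratinocyte-like). The last 3 were Mbp of glia, Acta2 of mural and Hbb-y of erythroid cells. Each library held from 149 UMIs (Cdc6 in control 2) to 7415 UMIs (Ube2c in control 1) of a member.

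Promoter sequences are shown for 6 members because these are the 3 members of each part whose level varied most between cell types and because they carry different motifs. Each is the 250 bases before the annotated start from RefSeq on GRCm38.p6, written 5′ to 3′ on the gene's own strand. The positions are chr8:75109259-75109508 (plus strand) for Mcm5, chr17:56303087-56303336 (plus) for Uhrf1, chr8:122567765-122568014 (plus) for Cdt1, chr9:70421555-70421804 (minus) for Ccnb2, chr2:164769679-164769928 (plus) for Ube2c and chr1:189688087-189688336 (minus) for Cenpf. Capitals mark letters that match an E2F core (written TTCCCGC, or its variants TTCGCGC, with TTGCCGC next and TTGGCGC last), a CHR element (TTTGAA or TTCGAA) or a CCAAT box (CCAAT), each on either strand. Matches can overlap or abut, as in Mcm5 and Ube2c, and then form 1 run of capitals.
Mcm5: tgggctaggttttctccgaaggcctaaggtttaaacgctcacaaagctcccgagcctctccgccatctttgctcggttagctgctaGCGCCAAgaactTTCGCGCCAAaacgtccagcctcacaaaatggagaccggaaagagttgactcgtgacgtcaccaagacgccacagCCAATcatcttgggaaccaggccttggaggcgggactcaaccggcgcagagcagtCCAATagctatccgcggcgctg
Uhrf1: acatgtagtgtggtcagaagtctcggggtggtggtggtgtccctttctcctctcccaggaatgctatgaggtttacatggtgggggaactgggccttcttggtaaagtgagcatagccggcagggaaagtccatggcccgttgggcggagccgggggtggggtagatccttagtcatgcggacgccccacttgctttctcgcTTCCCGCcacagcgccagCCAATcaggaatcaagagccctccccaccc
Cdt1: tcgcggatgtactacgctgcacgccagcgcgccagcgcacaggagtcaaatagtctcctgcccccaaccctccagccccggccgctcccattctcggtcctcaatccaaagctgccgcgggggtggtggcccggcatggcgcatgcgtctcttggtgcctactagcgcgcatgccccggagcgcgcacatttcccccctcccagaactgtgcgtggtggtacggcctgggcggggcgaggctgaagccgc
Ccnb2: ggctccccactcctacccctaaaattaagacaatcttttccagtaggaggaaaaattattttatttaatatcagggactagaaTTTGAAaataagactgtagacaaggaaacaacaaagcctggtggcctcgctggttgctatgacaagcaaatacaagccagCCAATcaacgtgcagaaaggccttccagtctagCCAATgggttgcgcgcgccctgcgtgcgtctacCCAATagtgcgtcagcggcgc
Ube2c: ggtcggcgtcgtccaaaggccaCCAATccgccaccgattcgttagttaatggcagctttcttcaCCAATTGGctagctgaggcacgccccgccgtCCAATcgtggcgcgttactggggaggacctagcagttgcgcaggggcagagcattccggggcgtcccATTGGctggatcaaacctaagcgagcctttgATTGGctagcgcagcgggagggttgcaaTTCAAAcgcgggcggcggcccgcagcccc
Cenpf: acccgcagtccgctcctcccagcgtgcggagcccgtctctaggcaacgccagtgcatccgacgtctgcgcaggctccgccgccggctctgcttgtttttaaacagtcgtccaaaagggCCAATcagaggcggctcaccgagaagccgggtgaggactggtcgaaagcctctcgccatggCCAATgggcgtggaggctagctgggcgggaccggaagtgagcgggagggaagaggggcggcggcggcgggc

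By GENCODE M21 on GRCm38 the genes themselves span chr8:75109569-75128439 (Mcm5, ENSMUSG00000005410), chr17:56303321-56323486 (Uhrf1, ENSMUSG00000001228), chr8:122568015-122573554 (Cdt1, ENSMUSG00000006585), chr9:70407692-70421547 (Ccnb2, ENSMUSG00000032218), chr2:164769898-164778822 (Ube2c, ENSMUSG00000001403) and chr1:189640606-189688086 (Cenpf, ENSMUSG00000026605). All 6 are protein-coding. The Mcm5 window held 3 E2F cores and 2 CCAAT boxes. Uhrf1 had 1 of each, and Cdt1 had none of the 3 motifs in this window. The mitotic windows looked different: Ccnb2 had 1 CHR element and 3 CCAAT boxes, Ube2c 1 CHR element and 6 CCAAT boxes, and Cenpf 2 CCAAT boxes only. A promoter entry was found for 35 members, 14 of the S part and 21 of the mitotic part. An E2F core was present in 8 of 14 S promoters (57.1%) and in 4 of 21 mitotic promoters (19.0%), beside 7.97% of all 27025 promoters of the same length. CHR letters occurred in 2 of 14 S promoters (14.3%) and in 8 of 21 mitotic promoters (38.1%), beside 17.4% of all promoters. CCAAT boxes were found in 10 of 14 (71.4%) and 19 of 21 (90.5%), beside 34.5% of all promoters. Among 17492 promoters of protein-coding genes the shares were 10.1% for E2F cores, 16.4% for CHR elements and 36.3% for CCAAT boxes. All motif counts here are matches of short letter strings, not measured sites.

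**Figure D1:**
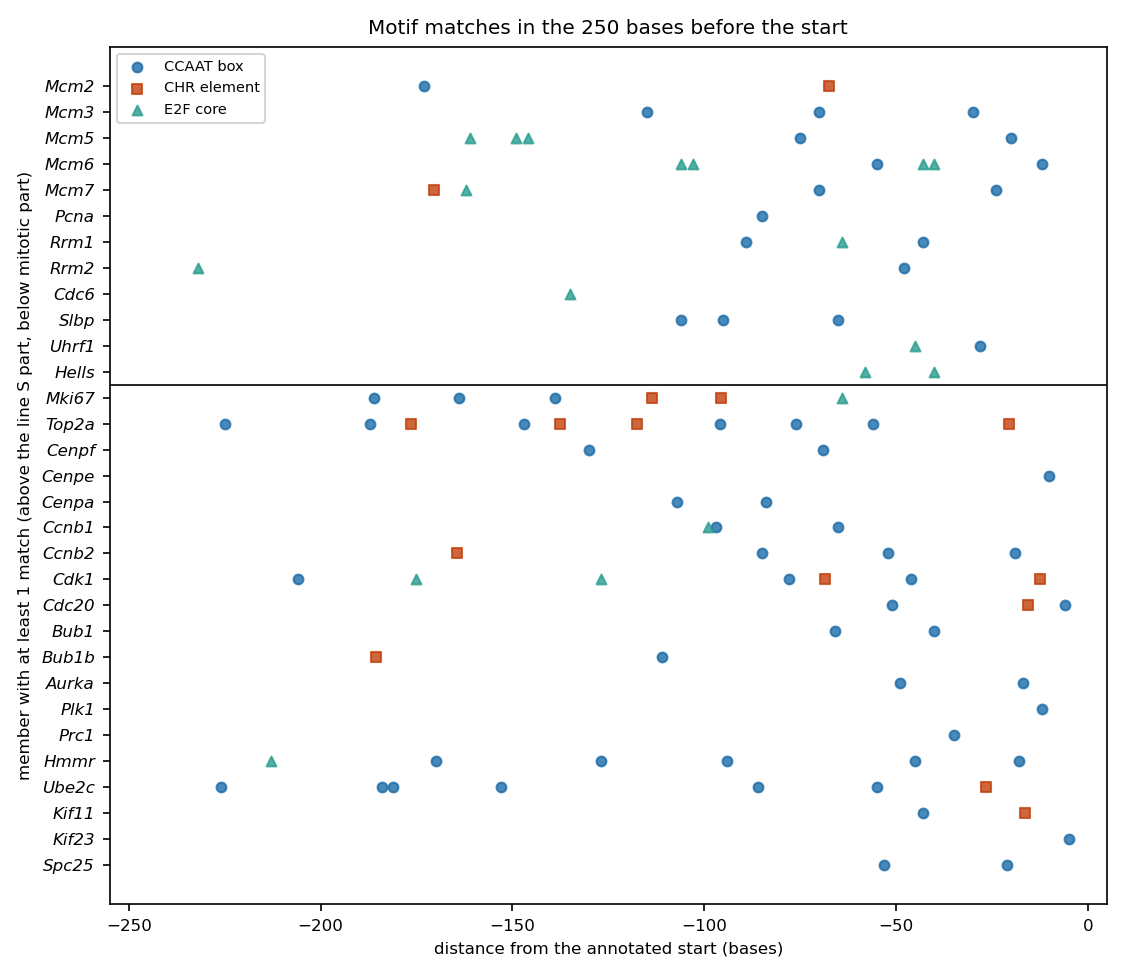
Positions of E2F core (triangles), CHR element (squares) and CCAAT box (circles) matches in the 250 bases before the annotated start, 1 row per member with a match, with the S part above the line. Triangles lie mostly above the line (8 of 14 S promoters, 4 of 21 mitotic promoters) and squares mostly below it (8 of 21 mitotic promoters, 2 of 14 S promoters).

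Members lay on 16 chromosomes, and none lay on chromosome 15, which holds Sox10. Mcm7, Gins2, Ccna2, Cdc20, Nusap1, Prc1 and Ube2c overlap a gene on the opposite strand that the tables also count. Whether counting used strand is not given in the sources used here, so reads of these 7 and of their partners may not be told apart.

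The first comparison asked whether the cell cycle genes differed between mutant and control noses over all cells. No member passed the test: 0 of 40 were called at an adjusted p under 0.05 by edgeR's quasi-likelihood test, and 0 had an unadjusted p under 0.05. The background was the same, with 0% of 18080 tested genes called, of which 4.884% had an unadjusted p under 0.05. DESeq2's Wald test also called 0 members, with 1 at an unadjusted p under 0.05, and called 30 of all genes. The median log2 fold change, mutant over control, was -0.02 in the S part (range -0.14 to 0.26) and -0.02 in the mitotic part (-0.29 to 0.11), beside 0.00 over all genes. In sums over cells, fewer cycling cells and less RNA per cycling cell cannot be told apart.

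Among the replication genes, the MCM helicase subunits Mcm2 to Mcm7, which unwind DNA at the fork, differed little between libraries. Mcm6 was at 65.3 and 73.2 CPM in controls 1 and 2 against 68.7 and 69.2 CPM in mutants 1 and 2. Its mutant values lay between the control values. Pcna, the sliding clamp of the replicative polymerases, stood at 121 and 121 CPM in controls beside 125 and 121 CPM in mutants, with overlap. Slbp, which binds the stem-loop of histone mRNA and peaks in S phase, was at 116 and 97.0 CPM in controls against 136 and 125 CPM in mutants. Both mutant values of Slbp were the higher ones, and it had the smallest unadjusted p of all members, with a log2 fold change of 0.26 ± 0.11 (SE, n = 2 against 2), an edgeR p of 0.0630 and an adjusted p of 0.909. Rrm2, the regulated subunit of ribonucleotide reductase, was also above both controls in both mutants, at 48.8 and 47.5 against 51.3 and 50.05 CPM. Uhrf1, which brings DNA methyltransferase to newly made DNA, lay below, at 41.0 and 41.1 against 37.9 and 40.1 CPM, with a log2 fold change of -0.11 ± 0.08. For Uhrf1 the direction turned when every cell was thinned to 3000 UMIs (0.039, edgeR adjusted p 0.968). The other 13 S genes overlapped between groups, among them Rrm1, the large subunit of ribonucleotide reductase (-0.14 ± 0.11 on the log2 scale), Gins2 (-0.10 ± 0.09) and Mcm7 (-0.10 ± 0.11).

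Among the mitotic genes, 3 of 24 lay below both controls in both mutants and none above. Top2a, the topoisomerase that untangles sister chromatids, was at 174 and 209 CPM in controls 1 and 2 against 153 and 170 CPM in mutants 1 and 2. Its log2 fold change was -0.29 ± 0.13 (SE), with an edgeR p of 0.0641 and an adjusted p of 0.909. Ccnb1, the cyclin that drives entry into mitosis, was at 48.5 and 49.2 CPM against 41.2 and 48.2 CPM. Bub1b, a kinase-like protein of the spindle checkpoint, was at 28.2 and 26.1 CPM against 25.0 and 23.3 CPM. Nusap1, a microtubule-bundling protein of the spindle, overlapped, at 88.8 and 104.9 CPM against 79.2 and 90.3 CPM, with a log2 fold change of -0.23 ± 0.12, and so did Birc5, the survivin of the chromosomal passenger complex (-0.11 ± 0.11). Cenpf, a kinetochore protein, overlapped, with mutant 2 highest (128 and 121 CPM in controls, 118 and 149 CPM in mutants). Ube2c, the ubiquitin-conjugating enzyme of the anaphase-promoting complex, overlapped as well, at 210 and 181 CPM in controls beside 168 and 205 CPM in mutants. Of 17919 genes with a mean of at least 10 UMIs, 24.9% lay above and 13.0% below both controls in both mutants. Those shares are the background for the 2 S genes above, the 1 S gene below and the 3 mitotic genes below.

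**Figure D2:**
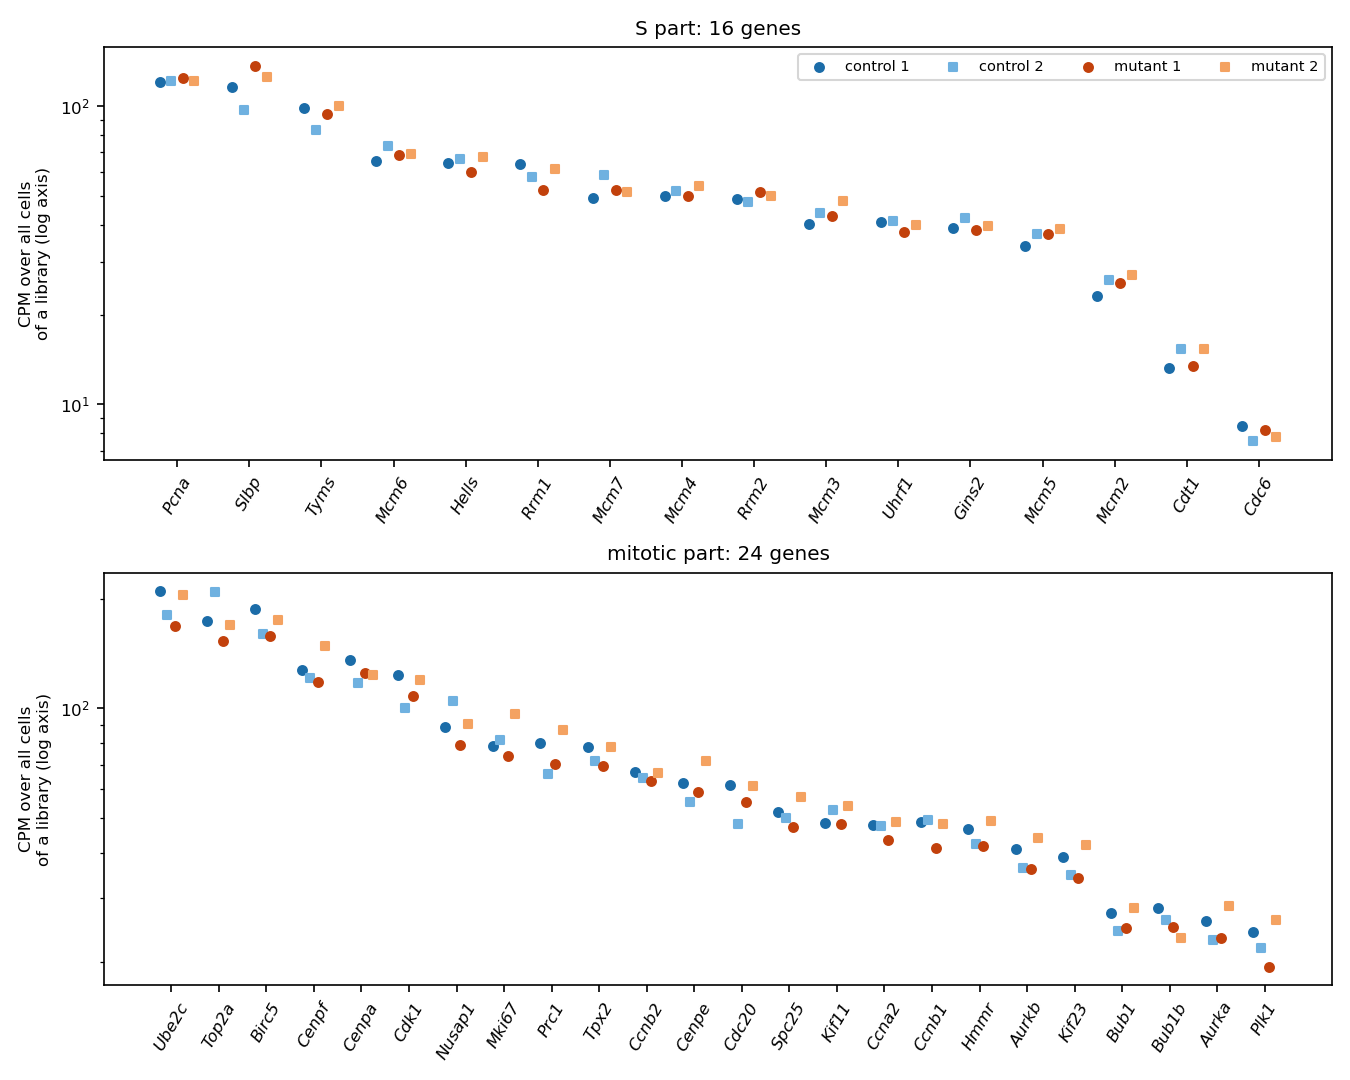
Level of each member over all cells of a library (CPM, log axis), controls in blue and mutants in orange, circles for replicate 1 and squares for replicate 2. In most genes the 4 points overlap between groups; Slbp (97.0 to 136 CPM) and Top2a (153 to 209 CPM) are the members with the smallest unadjusted p.

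To compare cells at equal depth, each cell with at least 3000 UMIs was thinned to 3000, which kept 12545 cells and left out 268, 172, 211 and 543 cells of control 1, control 2, mutant 1 and mutant 2. A cell was counted for a part when it held at least 2 UMIs of that part. Cells with S part UMIs made up 46.5% and 44.9% of controls 1 and 2 and 46.3% and 48.0% of mutants 1 and 2. Cells with mitotic UMIs made up 29.2% and 27.4% of controls and 25.1% and 27.2% of mutants. The S shares overlapped between groups, and the mitotic shares were lower in both mutants by a small margin, 27.2% against 27.4% for the nearest pair. On cells thinned to 5000 UMIs the mitotic difference was 0.41 percentage points in the other direction. Without thinning the S shares were 70.7% and 68.4% in controls and 76.5% and 63.9% in mutants, so the deepest library ranked highest and the shallowest lowest. Free RNA and counts by chance add to any such share. Differentiated keratinocyte-like and neuron-like cells, types expected to have stopped dividing, had thinned shares averaging 33.0% and 33.6% for the S part. Their mitotic shares averaged 13.0% and 21.3%. Over libraries, neuron-like shares ran from 11.1% to 43.5% for the S part and from 0% to 43.5% for the mitotic part. Whether these cells had stopped dividing was not tested, so the averages set no background level.

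Within cell types the same comparison also called no member. Of the 9 types with at least 20 cells in every library, all 9 had 0 of 40 members called by edgeR's quasi-likelihood test. The background, the share of all tested genes called in either direction, was 0.0524% in basal epithelium-like, 0.00997% in chondrocyte-like, 0.139% in endothelial-like and 0.744% in mural-like cells, and 0% in glia-like, macrophage-like, mesenchyme-like, nasal epithelium-like and osteoblast-like cells. Counts at an unadjusted p under 0.05 were 9 mitotic genes in macrophage-like cells, 6 mitotic genes in mural-like cells, 5 S genes and 1 mitotic gene in endothelial-like cells, and 4 mitotic genes and 1 S gene in nasal epithelium-like cells. Chondrocyte-like cells had 2 S genes, basal epithelium-like and mesenchyme-like cells 1 S gene each, osteoblast-like cells 1 mitotic gene and glia-like cells none. Of all tested genes 5.776% had such a p in macrophage-like, 9.457% in mural-like, 6.193% in endothelial-like, 3.121% in nasal epithelium-like, 4.836% in chondrocyte-like, 5.702% in basal epithelium-like, 7.682% in mesenchyme-like, 3.252% in osteoblast-like and 4.654% in glia-like cells. DESeq2's Wald test called 0 members in each of these types. With cells thinned to 3000 UMIs, edgeR again called 0 members in all 9 types, with 7 to 40 members testable per type.

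Mesenchyme-like cells, 73.1% to 78.6% of each library and in the nose largely of neural crest origin, gave the most precise values. Their summed S part was at 807 and 797 CPM in controls 1 and 2 against 868 and 849 CPM in mutants 1 and 2, and their summed mitotic part overlapped (1606 and 1701 against 1552 and 1686 CPM). The share of thinned cells with mitotic UMIs was 23.6% and 25.5% in controls against 22.6% and 22.1% in mutants. This difference of -2.19 percentage points (pooled SD 0.96) passes no threshold with 2 libraries per group. For S part UMIs the shares were 44.0% and 43.3% against 44.6% and 46.1%. Both mutants were above both controls for 9 of 16 S genes, beside 26.0% of all genes in these cells. Slbp was at 114 and 94.2 CPM in controls against 142 and 124 CPM in mutants, a log2 fold change of 0.31 ± 0.12 (SE, n = 2 against 2) with an edgeR p of 0.0406 and an adjusted p of 0.635. Bub1b was at 22.9 and 26.1 CPM in controls against 21.9 and 19.8 CPM in mutants.

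Glia-like cells express Sox10, as melanocyte-like cells do (303 CPM in each), so the driver is expected to be active in them. They were few, with 40, 26, 31 and 20 cells in the order control 1, control 2, mutant 1, mutant 2. Yap1 had 21, 12, 15 and 8 UMIs there in that order and overlapped (54.3 and 52.4 against 42.1 and 55.0 CPM). Wwtr1 was higher in both mutants, at 225 and 188 against 244 and 330 CPM. As over all cells, these values do not check the deletion. The summed mitotic part of glia-like cells was at 3224 and 1345 CPM in controls against 2117 and 3527 CPM in mutants, so control 1 and mutant 2 were both high. The S part overlapped too, at 926 and 1423 CPM against 1123 and 866 CPM. Cenpf had 65 and 19 UMIs in controls and 69 and 41 UMIs in mutants, and its log2 fold change of 0.76 had an unadjusted edgeR p of 0.0524. Mcm7 was at 88.0 and 74.2 CPM in controls against 61.8 and 27.5 CPM in mutants, with a log2 fold change of -0.77 ± 0.42 and an edgeR p of 0.0934. Shares of cells thinned to 3000 UMIs did separate the groups. Glia-like cells with S part UMIs made up 70.0% and 76.0% of controls (28 of 40 and 19 of 25 cells) against 45.2% and 31.6% of mutants (14 of 31 and 6 of 19 cells). Those with mitotic UMIs made up 62.5% and 52.0% against 38.7% and 36.8%. Both mutants were below both controls in each share, by 34.6 and 19.5 percentage points with pooled SDs of 7.42 and 5.33 points. A two-sided exact permutation test of 2 libraries against 2 cannot go below 0.333, so these differences pass no threshold. The mean mitotic CPM of the same cells was higher in mutants, at 2822 against 2284 CPM, so no order was read from the mitotic share.

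Macrophage-like cells, which do not derive from the neural crest, had lower mitotic sums in both mutants, without any member passing the test. The summed mitotic part was at 1979 and 3044 CPM in controls 1 and 2 against 1859 and 1478 CPM in mutants 1 and 2, with control 2 far above the rest. All 24 mitotic log2 fold changes were negative, with a median of -0.60, and 13 of 24 genes were below both controls in both mutants, beside 18.8% of all genes. Nusap1 was at 100 and 164 CPM in controls against 68.1 and 62.6 CPM in mutants. Its log2 fold change was -0.99 ± 0.28 (SE), with an edgeR p of 0.00684 and an adjusted p of 0.837. Cenpe, the kinetochore motor, was at 59.0 and 101 CPM against 38.7 and 30.6 CPM. The S part of the same cells overlapped, and its median log2 fold change was -0.07.

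Nasal epithelium-like cells showed the same order for the mitotic part, at 3527 and 3911 CPM in controls against 2712 and 3294 CPM in mutants. In these cells 16 of 24 mitotic genes were below both controls in both mutants, beside 16.5% of all genes. Top2a was at 315 and 395 CPM in controls against 196 and 236 CPM in mutants, a log2 fold change of -0.70 ± 0.18 (SE) with an edgeR p of 0.00437 and an adjusted p of 1.00. Rrm2 was at 77.0 and 82.5 CPM against 44.8 and 42.5 CPM, with a log2 fold change of -0.86 ± 0.21, an edgeR p of 0.00310 and an adjusted p of 1.00. Control 2 supplied 25 of these cells, and the other libraries 115 to 130. The type pools olfactory neuronal progenitors with other olfactory and respiratory epithelium. By a finer name, progenitors numbered 11 and 8 in controls 1 and 2 and 6 and 9 in mutants 1 and 2, so control 2 had a different mix. Their thinned mitotic share averaged 77.2%, beside 55.6% for the whole type. The part of this mix in the values was not tested.

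In endothelial-like cells it was the S part whose sums separated the groups, again without any member passing the test. Their summed S part was at 957 and 1062 CPM in controls against 784 and 735 CPM in mutants, and 12 of 16 S genes were below both controls in both mutants, beside 17.0% of all genes. Mcm5 was at 44.7 and 62.6 CPM against 32.5 and 25.8 CPM, a log2 fold change of -0.87 ± 0.30 (SE) with an edgeR p of 0.0127 and an adjusted p of 0.656. Hells, a chromatin remodeller of the SNF2 family, was at 63.8 and 76.3 CPM against 39.9 and 43.0 CPM. The share of endothelial-like cells with S part UMIs went the other way (51.7% and 48.0% in controls, 56.3% and 59.5% in mutants), so no order was read from it. Median depth of these cells was 14553 and 12984 UMIs in controls and 17296 and 6138.5 UMIs in mutants 1 and 2, and its part in these values was not tested.

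Mural-like cells, the pericytes and smooth muscle cells around vessels, had higher mitotic sums in both mutants without any member passing the test, at 2523 and 2672 CPM in controls against 3296 and 2951 CPM. Of 24 mitotic genes, 9 were above both controls in both mutants, beside 21.6% of all genes. Cenpe was at 57.5 and 97.1 CPM in controls against 141 and 121 CPM in mutants, with a log2 fold change of 0.77 ± 0.28 (SE), an edgeR p of 0.0153 and an adjusted p of 0.330. Cenpf was at 128 and 164 CPM against 190 and 255 CPM there, with an edgeR p of 0.0174. In basal epithelium-like cells Mcm3 was at 45.4 and 33.2 CPM against 64.9 and 49.3 CPM, with an edgeR p of 0.0403 and an adjusted p of 0.870, and Pcna was at 129 and 130.2 CPM against 155 and 156 CPM (p 0.0678 by edgeR). In chondrocyte-like cells Slbp was at 116 and 91.3 CPM against 159 and 161 CPM, a log2 fold change of 0.58 ± 0.19 with an edgeR p of 0.0113 and an adjusted p of 0.920, and Rrm2 was at 43.9 and 30.9 CPM against 54.7 and 68.5 CPM. Osteoblast-like cells of mutant 1 numbered 28 and those of control 2 numbered 20, and no member passed the test there. The smallest p there were those of 2 mitotic kinases, Aurkb with 25, 6, 15 and 31 UMIs (21.6 and 20.8 CPM against 34.0 and 45.4 CPM, edgeR p 0.0380) and Bub1 with 13, 1, 11 and 13 UMIs (edgeR p 0.0566).

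The number of members called within types changed when a library or the filter on low counts was left out, and so did the share of all genes called. With control 1 left out, edgeR called Mki67 and Cdk1 in basal epithelium-like cells (beside 2.91% of all genes), Cenpf, Ube2c, Cdc20 and Rrm2 in glia-like cells (2.46%), and Slbp, Nusap1 and Top2a in mesenchyme-like cells (4.99%). It also called Cenpf, Nusap1, Cenpe, Hmmr, Top2a and Kif11 in macrophage-like cells (1.17%) and Nusap1 and Top2a in nasal epithelium-like cells (4.84%). With mutant 2 left out it called Aurkb in mural-like cells (1.71%). With all libraries but no filter on low counts, 5 members were called in macrophage-like cells (0.852%) and 1 in nasal epithelium-like cells (0.842%). In these fits the lone library of a group is assumed to vary like the other group. Without control 1 that library was control 2, which had the highest mitotic sum of macrophage-like cells. The difference of the mutant effect between the 9 types was tested with 1 F test per gene: 0 of 40 members were called (edgeR, adjusted p under 0.05), 4 had an unadjusted p under 0.05 (Mcm2, Slbp, Bub1b and Cenpf), and 0.0317% of 12607 genes were called. Without control 1 the F test called 1 member, beside 1.12% of all genes, and with no filter on low counts it called 5, beside 2.47%.

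**Figure D3:**
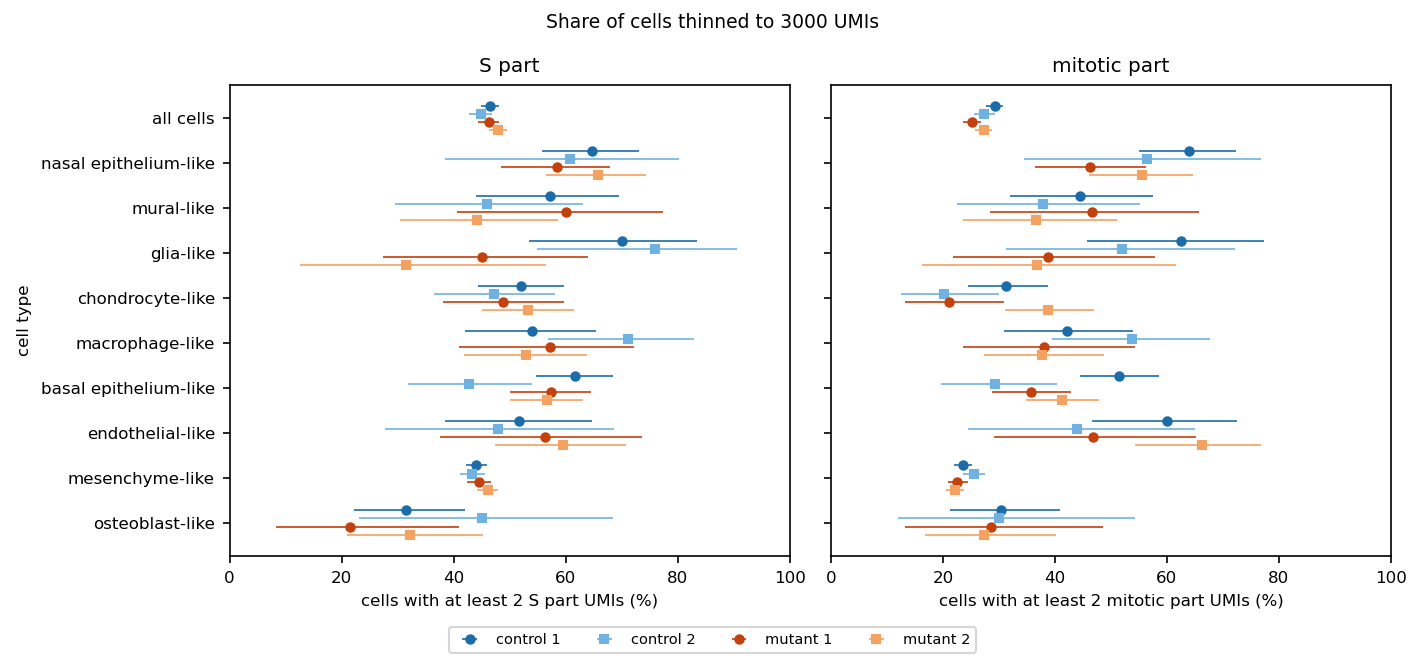
Share of cells with at least 2 UMIs of the S part (left) or the mitotic part (right) after thinning to 3000 UMIs, by cell type and library, controls in blue and mutants in orange; bars are exact 95% binomial intervals, which cover counting error only. All-cell shares lie between 44.9% and 48.0% for the S part and between 25.1% and 29.2% for the mitotic part, while glia-like shares run from 31.6% to 76.0% for the S part with wide bars.

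The next comparison asked how the cell cycle genes differed between the cell types of the nose, each of the 9 types against the mean of the other 8 over all 4 libraries. Nasal epithelium-like cells had the most mitotic genes higher, macrophage-like cells had the most replication genes higher, and osteoblast-like cells were low in both parts. Nasal epithelium-like cells had 24 of 40 members higher (6 S, 18 mitotic) and 0 lower, beside 27.2% of 12074 genes called higher and 22.9% called lower there. Macrophage-like cells had 18 higher (11 S, 7 mitotic; background 28.5% of genes) and 1 lower (28.6%). Osteoblast-like cells had 0 higher and 22 lower (9 S, 13 mitotic; background 20.5% higher and 12.1% lower). Mesenchyme-like cells had 0 higher and 33 lower (11 S, 22 mitotic; background 29.6% higher and 17.7% lower), a count that a window on cell depth removed and thinning did not, as given further on. Mural-like cells had 7 higher, all mitotic (background 15.0%), and glia-like cells had 3 higher (11.9%). Endothelial-like cells had 1 higher (21.7%) and 7 lower (16.3%), basal epithelium-like cells 4 higher (27.1%) and 1 lower (19.5%), and chondrocyte-like cells 3 lower (12.7%). In the mural-like, glia-like, endothelial-like, basal epithelium-like and chondrocyte-like cells the counts out of 40 were near or under the share of all genes called. They are no result about the whole set. The 7 mural-like calls all fell among the 24 mitotic genes. With cells thinned to 3000 UMIs, 0 of 23 tested mitotic genes were called in mural-like cells.

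In macrophage-like cells 11 of 16 S genes were higher, among them 5 of the 6 MCM subunits. Mcm5, whose promoter with 3 E2F cores is printed above, was at 70.8, 90.9, 103 and 81.5 CPM in control 1, control 2, mutant 1 and mutant 2, above the other types' mean by a log2 difference of 1.42 ± 0.17 (SE, edgeR adjusted p 3.8e-09). Its mean over osteoblast-like libraries was 28.7 CPM. Cdt1, which loads MCM onto origins, was at 37.8, 23.4, 22.1 and 24.8 CPM in the same order, a log2 difference of 1.29 ± 0.23. In osteoblast-like cells Cdt1 averaged 5.36 CPM and had 10, 2, 0 and 4 UMIs. The 0 in mutant 1 allows up to 6.81 CPM. Mcm3 (1.30 ± 0.16), Gins2 of the GINS complex (1.13 ± 0.15), Mcm7 (0.99 ± 0.12) and Mcm6 (0.94 ± 0.11) were higher by similar amounts. Uhrf1 (0.82), Pcna (0.78), Mcm2 (0.55) and Rrm1 (0.49) were higher by less, as was Cdc6, which helps load MCM (0.91), and Mcm4 did not pass the test (0.32, edgeR adjusted p 0.0872). The nucleotide enzyme Rrm2 was not among them: its mean of 37.7 CPM was the lowest of the 9 types. The median log2 difference was 0.80 in the S part and 0.27 in the mitotic part.

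Nasal epithelium-like cells had the highest mean of the 9 types for 22 of 40 members, 18 of them mitotic. The type pools olfactory neuronal progenitors with other olfactory and respiratory epithelium, which were not compared here. Cenpf was at 327, 319, 274 and 304 CPM, with every library above the 67.8 CPM mean of osteoblast-like cells, and the log2 difference was 1.20 ± 0.16 (SE, edgeR adjusted p 6.7e-08). Ube2c was at 457, 489, 321 and 426 CPM, a log2 difference of 0.92 ± 0.17. Prc1, which bundles microtubules of the central spindle, was higher by 0.93 ± 0.16, Cdc20, the activator of the anaphase-promoting complex, by 0.87 ± 0.18, Plk1, a mitotic kinase, by 0.84 ± 0.17 and Bub1b by 0.56 ± 0.20. Of the S part Hells was highest here, at 135, 182, 86.0 and 135 CPM, a log2 difference of 0.90 ± 0.12, while the MCM genes passed no test. In basal epithelium-like cells, the progenitor layer of the skin and nasal lining, Uhrf1 was at 82.4, 56.6, 79.3 and 70.7 CPM, a log2 difference of 0.77 ± 0.13 (edgeR adjusted p 5.7e-06), and Hells (0.51), Cdt1 (0.53) and Mcm4 (0.48) were higher too.

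Osteoblast-like cells, which build bone matrix, had the lowest mean of the 9 types for 28 of 40 members (9 of 16 S, 19 of 24 mitotic). The log2 difference was -1.15 ± 0.23 (SE, edgeR adjusted p 0.000162) for Uhrf1, -1.13 ± 0.17 for the B-type cyclin Ccnb2, -1.05 ± 0.24 for Ube2c and -1.21 ± 0.36 for Cdt1. Cenpf (-0.95), Bub1b (-0.93), Prc1 (-0.86), Mcm5 (-0.60) and Hells (-0.57) were lower as well, and Gins2 was lower in chondrocyte-like cells (-0.55). In glia-like cells Ccnb2 was at 160, 87.3, 98.3 and 158 CPM, a log2 difference of 0.70 ± 0.16, and Mcm6 and Prc1 passed the test as well. Mural-like cells had all 24 mitotic differences above 0 with a median of 0.42, led by Plk1 (0.72 ± 0.22) and Bub1 (0.70 ± 0.21), a checkpoint kinase.

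**Figure D4:**
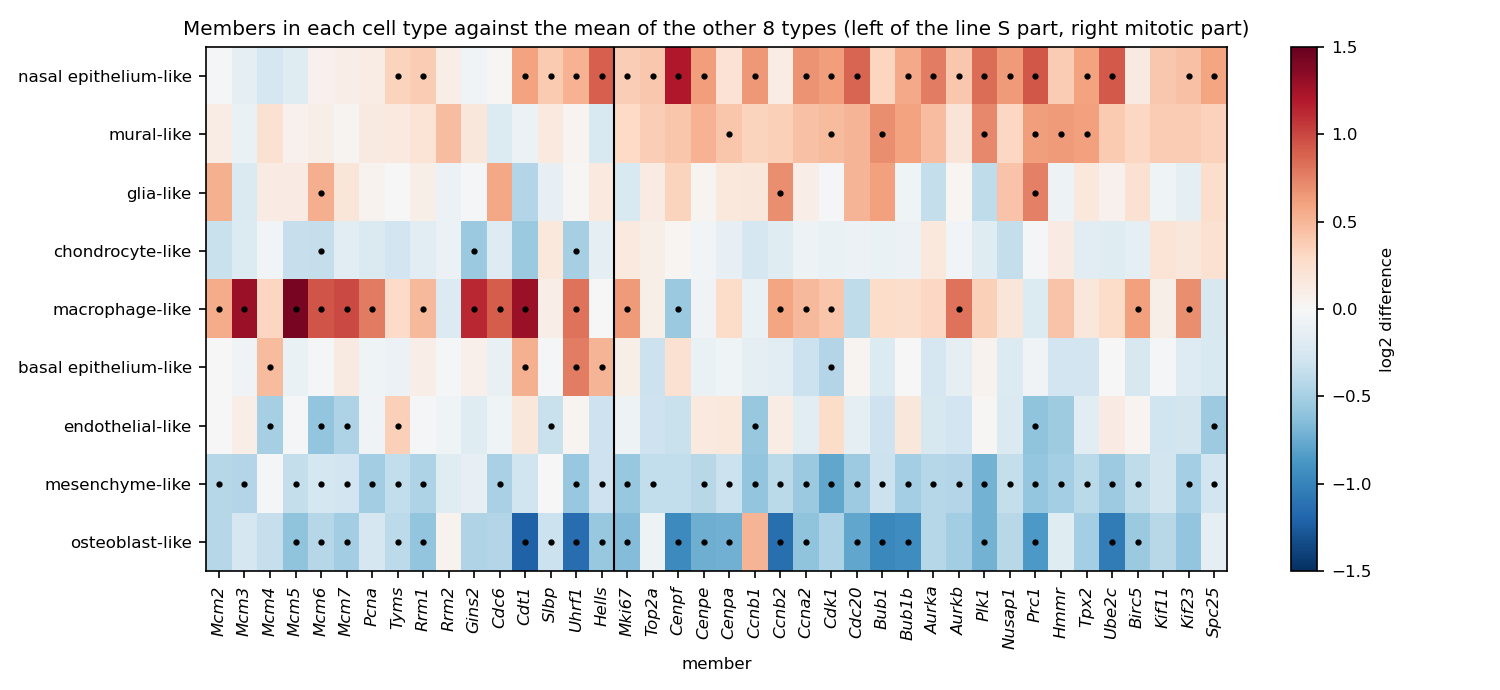
Log2 difference of each member in each cell type against the mean of the other 8 types (red higher, blue lower, scale from -1.5 to 1.5), S part left of the line; a dot marks an edgeR adjusted p under 0.05. Red dots gather in nasal epithelium-like cells on the mitotic side (18 genes) and in macrophage-like cells on the S side (11 genes), and blue dots fill the mesenchyme-like (33 genes) and osteoblast-like (22 genes) rows.

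Cell depth moved with these counts. Mesenchyme-like cells had median depths of 4984 to 8209 UMIs, while those of the other 8 types ran from 6138.5 to 17296 UMIs. Within mesenchyme-like cells the summed mitotic part was higher in deeper cells, with a mean over libraries of 571 CPM from 3000 to under 5000 UMIs, 1054 CPM from 5000 to under 10000, 3043 CPM from 10000 to under 15000 and 4417 CPM at 15000 or more. The S part went from 449 to 746, 1206 and 1168 CPM over the same classes. When all types were restricted to cells of 5000 to 15000 UMIs, an alternative chosen after seeing the data, mesenchyme-like cells had 0 members lower and 2 higher (beside 13.3% and 28.4% of all genes), and their median log2 differences were 0.01 in the S part and 0.10 in the mitotic part. When every cell was thinned to 3000 UMIs, which equalises the UMIs counted but keeps cells of every original depth, mesenchyme-like cells still had 27 members lower (5 of 14 S, 22 of 23 mitotic; 1136 of all 7349 genes) and 0 higher, with medians of -0.25 and -0.60. The low mesenchyme values thus held under thinning and not within the depth window. In that window nasal epithelium-like cells had 13 members higher (12 mitotic; 2122 of all 10124 genes) and osteoblast-like cells had 21 lower (8.70%), and with thinned cells these counts were 21 (20.4%) and 10 (6.30%). In the window macrophage-like cells had 8 S genes higher (26.4%) and 3 mitotic genes lower (24.9%). Glia-like cells had 9 members higher there, 8 of them mitotic (12.5%). The window left under 20 cells in some libraries, with 12 and 8 endothelial-like cells in control 2 and mutant 1. Osteoblast-like cells numbered 13 and 15 in the same libraries. It also left 10 nasal epithelium-like cells in control 2, 15 glia-like cells in mutant 2 and 19 mural-like cells in mutant 1. Leaving out single libraries gave 17 mesenchyme-like, 8 osteoblast-like, 5 endothelial-like, 1 chondrocyte-like and 1 glia-like members called without control 1. Without mutant 1 the mural-like count was 0 and the glia-like count was 1, and without mutant 2 the osteoblast-like count was 13. Shares of all genes called are not given for these fits. Without control 1 the mesenchyme-like median log2 differences were -0.35 (S part) and -0.41 (mitotic part), against -0.34 and -0.43 with all libraries. Those of osteoblast-like cells were -0.26 and -0.40, against -0.43 and -0.60. How far depth sets the differences between types was not tested beyond these values.

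The balance of the parts is given by their ratio. The mitotic sum divided by the S sum was 2.76 ± 0.19 (SD, n = 4) in nasal epithelium-like, 1.97 ± 0.14 in mesenchyme-like and 1.67 ± 0.40 in macrophage-like cells. Mural-like cells were at 2.66 ± 0.25, and their libraries (2.44 to 2.95) overlapped those of nasal epithelium-like cells (2.54 to 3.00). Macrophage-like libraries (1.19 to 2.16) overlapped those of mesenchyme-like (1.79 to 2.13) and basal epithelium-like cells (1.39 to 2.43). Glia-like cells spread from library to library (2.60 ± 1.44), and over all cells the ratio was 1.89 to 2.17.

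Co-occurrence within single cells was described in the 9556 thinned mesenchyme-like cells, each placed in a state by the UMIs of the other members, leaving out the gene described. Over all thinned cells 18.7% held UMIs of both parts, 27.8% of the S part only, 8.60% of the mitotic part only and 45.0% of neither. All 16 S genes were highest in cells with both parts, and 12 of 16 were higher in S-only than in mitotic-only cells in all 4 libraries. Mcm6 had 10.6, 25.2, 36.5 and 7.10 UMIs per 100 cells in the states neither, S only, both and mitotic only. Pcna had 14.9, 32.8, 78.3 and 17.8 in that order. Tyms, thymidylate synthase, went the other way between the single states, with 6.995, 14.9, 85.5 and 21.8 UMIs per 100 cells, as did Rrm2 (2.03, 5.61, 52.2 and 8.80) and Uhrf1 (1.39, 6.01, 30.6 and 9.72), each in all 4 libraries.

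The mitotic genes split by where they peaked: 13 of 24 were highest in cells with both parts and 11 in mitotic-only cells, 7 of each in all 4 libraries. Top2a had 1.50, 5.28, 175 and 83.1 UMIs per 100 cells in the states neither, S only, both and mitotic only, and Cdk1, the mitotic kinase, had 2.38, 6.60, 91.3 and 49.2. Both genes were highest in cells that also held replication transcripts. Cenpa, the centromeric histone H3 variant, had 4.37, 4.10, 80.7 and 204, Ccnb2 1.82, 1.88, 48.2 and 79.3, and Cdc20 0.669, 0.781, 38.5 and 60.8, so the mitotic-only state was the higher. Aurka, a spindle-pole kinase, was level between them, at 18.8 and 18.8. In the other cell types 12 of 16 S genes were again higher in S-only than in mitotic-only cells in all 4 libraries, and 24 of 24 mitotic genes were higher in mitotic-only cells. The states are made from other members of the same cells, so this is a description without a test.

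**Figure D5:**
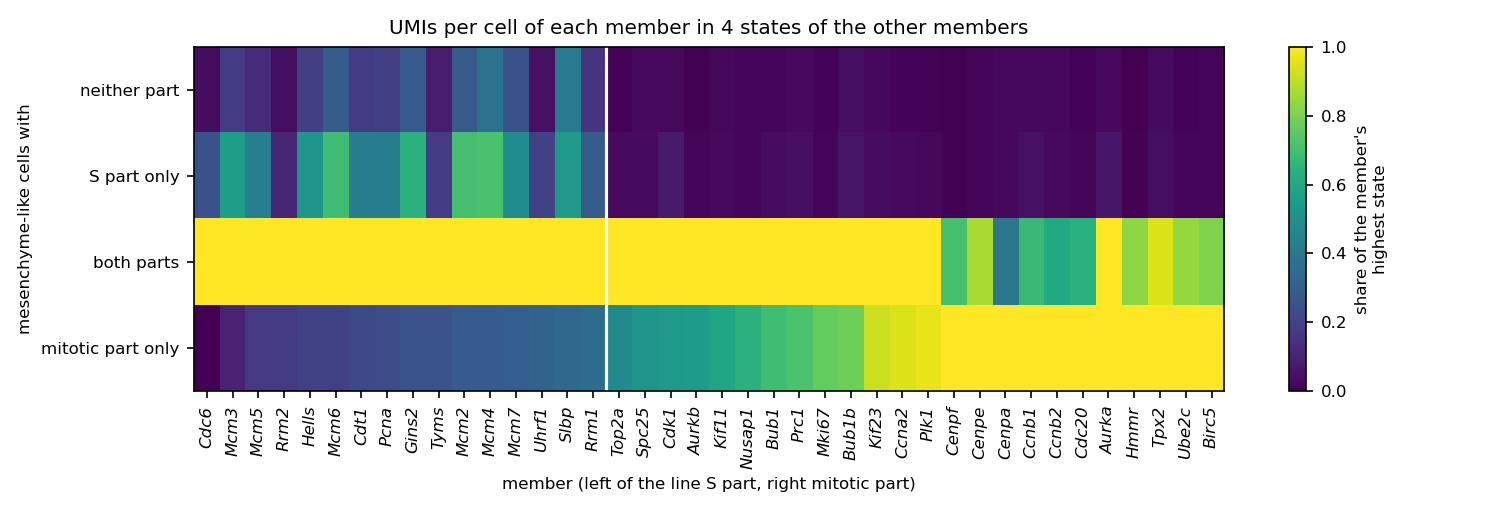
UMIs per cell of each member in 4 states of the other members in thinned mesenchyme-like cells, as a share of the member's highest state (color, 0 to 1), S part left of the line, members ordered within a part by the mitotic-only share. All 16 S genes peak in cells with both parts; from Top2a to Birc5 the mitotic genes go from peaking with both parts (13 genes) to peaking in mitotic-only cells (11 genes).

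Other genes of the cell cycle were read from lists of 42 further S phase genes, 45 further G2/M genes, 12 G1 cyclins and kinases and 15 brakes such as the CDK inhibitors. Over all cells 0 of each list were called between mutant and control (edgeR, background 0). Within types 1 was called: the antiproliferative gene Btg2 in mural-like cells, beside 0.744% of all 7127 genes tested there. Its log2 fold change was 1.21 ± 0.20 (SE), with an edgeR adjusted p of 0.0108. Between types, nasal epithelium-like cells had 26 of 44 tested G2/M genes higher and 0 lower (beside 27.2% and 22.9% of all genes), among them Cks2 (0.84) and Arl6ip1 (1.16), and 16 of 41 tested S genes higher and 1 lower, with Dut, which removes dUTP, at 1.06. Macrophage-like cells had 15 of 41 S genes higher and 1 lower, beside 28.5% and 28.6% of all genes, with the flap endonuclease Fen1 at 1.25. Mesenchyme-like cells had 0 higher and 31 of 44 G2/M genes lower, and 0 higher and 13 of 41 S genes lower, beside 29.6% of all genes higher and 17.7% lower. The S list's higher counts in nasal epithelium-like and macrophage-like cells are not far from those shares.

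Brakes differed in both directions. Cdkn1a, which encodes the CDK inhibitor p21, was higher in nasal epithelium-like (2.40 on the log2 scale), osteoblast-like (2.32) and macrophage-like cells (2.07) and lower in glia-like (-2.84) and mesenchyme-like cells (-1.84). Cdkn1c, encoding p57, was higher in chondrocyte-like (2.03), osteoblast-like (1.35) and mesenchyme-like cells (1.34) and lower in macrophage-like cells (-3.71). All of these passed edgeR's test. Cdkn1a was thus higher both in the type with most mitotic members higher and in the type low in both parts.

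The genes outside the set whose levels followed a part most closely were ranked by Pearson's r over 36 sums (9 types in 4 libraries), among 12422 genes. The points share libraries and depth, and r with the log2 UMIs of the sum was -0.24 for the S part and -0.21 for the mitotic part. Hat1 (r = 0.86), Pclaf (0.84), Gmnn (0.83), Fen1 (0.82) and Dnmt1 (0.81) were nearest to the S part. Kif2c (0.91), Cks2 (0.90), Cdca8 (0.87), Kif22 (0.86) and Tubb4b (0.86) were nearest to the mitotic part. Of the 10 nearest genes to each part, none was shared.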

How the data were processed

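Single-cell libraries of 2 control and 2 mutant noses were made with the 10x 3′ v3.1 dual-index kit after papain and collagenase dissociation and freezing, per the labels' protocols, which name 2 providers without saying which library went to which and mention a further sample not analysed here. The unit of the deposited matrices is the UMI count, unnormalized, for each gene in each barcode. The matrix headers name Cell Ranger 8.0.1, per the file headers, whereas Cell Ranger 4, Seurat 4.3.0 and mm10 are listed per the submitters' processing notes, and which of these made the counts is not settled. The members and gene lists used here were chosen with earlier results of these data known.

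A barcode was retained with 500 or more detected genes and no more than 10% of UMIs from mitochondrial genes. Scrublet (scanpy 1.11.5) called 0 to 3 doublets per library at its own threshold, which had not worked, so none were removed; an alternative removed the 56 to 163 highest scores per library. Cells were given the type with the highest share of its markers detected, with at least 3 markers (4 for chondrocyte, osteoblast and mural), not counting markers found in over 25% of cells, and mesenchyme needed its own markers and no other type. This rule was set after seeing the data. Counts were summed per library and type and compared by the quasi-likelihood test of edgeR 4.0.16 (TMM scaling, low-count filter) across all genes, with Benjamini-Hochberg adjustment at 0.05, under R 4.3.3. The method was tested on simulated data. CPM values are scaled to 1000000 UMIs per sum. Alternatives were DESeq2 1.42.0, its size factors in edgeR, no filter, doublets removed, stricter cells, thinning to 3000 UMIs, a replicate block, each library left out, and a depth window. Named members were the 5 of each part with the smallest p over all cells, the 2 with the smallest p per type, the 5 of each part that varied most over types, and genes of the other lists past the threshold; the rest are named for their role or order, after their values were seen. Intervals are exact Clopper-Pearson and, like the limit of 3 counts for a 0, cover counting error only.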

Additional observations from a re-analysis of the deposited data

Results flagged for a closer look

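Several sums and shares of the 2 parts had all mutant libraries on one side of all control libraries in one cell type and on the opposite side in another. The difference between types was not tested for these sums and shares; the gene-by-gene test of it called 0 of 40 members. The S part's CPM, as the mutant mean divided by the control mean, was 1.06 in basal epithelium-like, 1.16 in chondrocyte-like and 1.07 in mesenchyme-like cells, but 0.753 in endothelial-like cells. The same ratio for the mitotic part was 1.20 in mural-like cells, but 0.808 in nasal epithelium-like and 0.664 in macrophage-like cells. For the share of thinned cells with S part UMIs, mutant minus control was 8.02 percentage points in endothelial-like and 1.69 in mesenchyme-like cells, but -34.6 in glia-like cells. The endothelial-like share goes against the CPM of the same cells, so no order was read from it. In glia-like cells both mutants had lower S shares than both controls, while the summed S CPM overlapped. Glia-like cells numbered 20 to 40 per library.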

How the results depend on the processing

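With 2 libraries per group only large changes can pass the test, and types with few cells (glia, osteoblast) or shallow cells limit it further. No member was called between mutant and control over all cells under any alternative. Mcm7 turned direction without control 2: its log2 fold change over all cells ran from -0.23 to 0.047 with 1 library left out. Uhrf1 was at 0.039 with thinned cells. The mitotic share over all cells differed by 0.41 percentage points at 5000 UMIs. Within types, with no filter on low counts 5 members were called in macrophage-like cells, 1 in nasal epithelium-like cells and 5 for the difference between types. With 1 library left out the calls were 0 to 2 in basal epithelium-like, 0 to 4 in glia-like, 0 to 6 in macrophage-like, 0 to 3 in mesenchyme-like, 0 to 1 in mural-like and 0 to 2 in nasal epithelium-like cells, and 0 to 1 for the difference between types. With the replicate block 0 members were called in each comparison. Same-numbered libraries correlated at -0.08 to 0.11 over types, so no pairing by number was seen. With 2 libraries per group this cannot exclude a pairing. Between types, thinning to 3000 UMIs left 27 members called in mesenchyme-like cells, all lower, against 33, and left 1 member called in chondrocyte-like, endothelial-like, glia-like and mural-like cells, 12 in macrophage-like and 10 in osteoblast-like cells. Cells of 5000 to 15000 UMIs, chosen after seeing the data, gave 3 in basal epithelium-like, 0 in chondrocyte-like, 3 in endothelial-like, 9 in glia-like, 11 in macrophage-like, 2 in mesenchyme-like and 13 in nasal epithelium-like cells. No filter gave 13 in mural-like cells. Leaving out 1 library gave 1 to 3 in chondrocyte-like, 5 to 8 in endothelial-like, 1 to 4 in glia-like, 17 to 30 in mesenchyme-like, 0 to 7 in mural-like and 8 to 26 in osteoblast-like cells. Counts given without the share of all genes called do not tell a change in the members from a general change in calls. For changes not shown to come from fewer cells or libraries the cause was not tested.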
